A study of Mus musculus with 205 samples.

Results

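Nd3 is the mitochondrial gene for ND3, a small hydrophobic subunit in the membrane arm of respiratory complex I, close to where the membrane arm joins the arm that oxidises NADH. Like all mitochondrial genes it is present in many copies per cell, so an edit is measured as heteroplasmy, the share of mtDNA molecules that carry it. A DdCBE is a mitochondrial base editor made of a pair of TALE proteins, which bind DNA on either side of the target, each fused to an inactive portion of the bacterial deaminase DddA. Where both bind, the portions meet and turn C into uracil, which replication reads as T, mainly where a T precedes the C. The Nd3 editors place a stop codon in the gene in this way.

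Of the 205 samples of the series, 22 carry an Nd3 editor, as their labels state, and all are of NIH/3T3 origin, a fibroblast line from mouse embryos. They comprise 4 screening pairs with 1 sample each, numbered 31, 32, 57 and 58, and 18 samples of pair 32, the lead, in 6 formats. In the stable Tandem-HHR and stable Tandem formats, 1 line each of Flp-In-3T3 cells held the editor at a single genomic FRT site under an EF-1α promoter after hygromycin selection, sampled at days 28, 35 and 42. The other formats were transient transfections with CMV-driven plasmids, followed by sorting of fluorescent cells, with 3 samples each. Tandem-HHR and Tandem carried both monomers on 1 plasmid joined by T2A, a peptide at which ribosomes skip a bond, with the L-strand binding monomer in front. In 2-plasmid-HHR and 2-plasmid the monomers came from separate plasmids. HHR denotes a self-cleaving hammerhead ribozyme between the stop codon and the polyadenylation signal, which removes the poly(A) tail from the mRNA. By their labels, Tandem-HHR, Tandem and 2-plasmid-HHR cells were taken at 7 d and 2-plasmid cells at 14 d. A scheme of the study shows a longer recovery for the 7 d samples, and its text a later last day for the stable lines than its methods. The labels were followed here for both.

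The controls, labelled WT with no editor pair and here called empty vector, were 3 samples each for Tandem, 2-plasmid-HHR and 2-plasmid, 1 stable line at the same 3 days, and 1 sample in each of 2 screening runs. Tandem-HHR, transient and stable, was set against the empty vector of Tandem. Day, sequencing run and format changed together, and among the transient formats only Tandem-HHR and Tandem shared a run (MS5, also that of the stable lines), a day and an empty vector. The 2-plasmid-HHR samples were in run MS4 and the 2-plasmid samples in run NS1. Mean coverage of the mtDNA in the Nd3 samples was 266 to 339 in Tandem-HHR, 305 to 795 in Tandem, 6608 to 17368 in 2-plasmid-HHR, 57049 to 63160 in 2-plasmid, 132 to 4241 among the stable samples and, for the screening pairs, 363 to 1092. The depth at the target base is not given, so errors here are those between samples.

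The target was the first of 4 tryptophan codons of Nd3, all of which read TGA, a tryptophan codon in mitochondria. In the mouse mtDNA (GRCm38, chromosome M) the gene spans 9459 to 9806 on the L-strand sequence, 348 bp without introns, and the target base lies at 9526, the second base of codon 23. The substitution G9526A turns TGA into TAA, which leaves 22 of its 116 codons in front of the stop. The edited C itself lies on the complementary heavy strand. The 30 bases around it, at 9512 to 9541, are shown on both strands because the base edited by every Nd3 pair lies in them, with the target codon in capitals on the light strand and, on the heavy strand, the T and the edited C that follows it.
Nd3 light strand: tctagttgcattcTGActcccccaaataaa
Nd3 heavy strand: tttatttgggggagTCagaatgcaactaga

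This window held 12 C:G pairs, with 3 C on the heavy strand and 9 on the light strand, among them the run of C just after the target codon. Only 4 of the 12 C follow a T: the target, and on the light strand the C of C9513T, C9524T and C9530T, which lie 13 and 2 bases before and 4 bases after it. All 3 of these changes would leave the amino acid unchanged. The change C9534T would make a further stop, but that C follows another C. Across the gene, 40 of 115 C:G pairs had this context, 34.8%, against 29.2% of the 5989 C:G pairs of the whole mtDNA. The deposited values are means over the mtDNA, and whether these neighbours were edited was not analysed here.

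The windows of the 3 other genes measured in the same 6 formats are shown for comparison, on the heavy strand and with the same capitals. They belong to Cytb of complex III (G14374A, codon 77), CoII of complex IV (G7323A, codon 104) and Atp6 of the ATP synthase (G8069A, codon 48).
Cytb heavy strand: atatatcggattagTCacccgtaatttacg
CoII heavy strand: tcgtagcttcagtaTCattggtgccctatg
Atp6 heavy strand: ataagtttaactagTCagtgttggaaagaa
Each of these windows held 2 other C after a T, against 3 for Nd3. In Cytb and Atp6 1 of the 2 changes would be silent and in CoII 0, whereas for Nd3 all 3 would be. CoII was the only one of the 4 windows in which a further TGA codon, that of G7329A, has its C after a T.

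In the screen, the Nd3 pairs stood at a higher or a lower on-target level according to the TALE that binds the heavy strand. With H2, pair 32 (L2 with H2) edited 68.4% of reads and pair 58 (L1 with H2) 79.6%. With H1, pair 57 (L2 with H1) reached 37.5% and pair 31 (L1 with H1) 39.1%. H2 was thus higher than H1 by 30.8 percentage points with L2 and by 40.5 with L1. The choice of L-strand TALE changed the value by -11.3 points with H2 and by -1.58 with H1 (L2 minus L1). Each pair is 1 sample, so these are differences between samples with no error. In every one of these comparisons, of H2 with H1 and of L2 with L1, the pairs came from different runs.

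**Figure D1:**
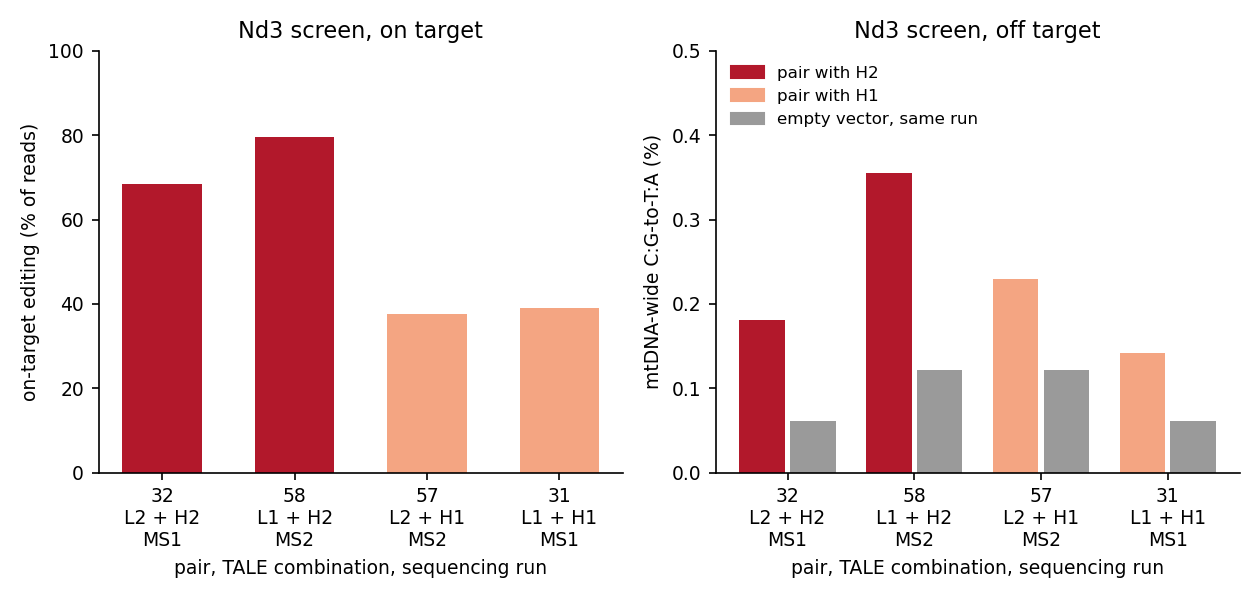
On-target editing (left, percent of reads) and the average frequency of C:G-to-T:A changes (right, percent) of the 4 Nd3 screening pairs at 7 d, 1 sample each, with the empty vector of the same run in grey. The pairs with H2 stand at 68.4% and 79.6% on target, those with H1 at 37.5% and 39.1%, and every pair lies above its empty vector off target.

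Average off-target editing, the mtDNA-wide frequency of C:G-to-T:A changes, was 0.181% for pair 32, 0.355% for pair 58, 0.229% for pair 57 and 0.142% for pair 31. The empty vectors were at 0.0616% in run MS1, which held pairs 31 and 32, and at 0.121% in run MS2, which held pairs 57 and 58. Over the empty vector of its run, pair 32 stood at 2.94-fold and pair 58 at 2.92-fold, and pairs 57 and 31 at 1.89-fold and 2.31-fold. Pairs 58 and 32 thus had near-equal folds, each over a single empty-vector sample, but not over the mean of both empty vectors (3.88-fold and 1.98-fold), and their distances above the empty vector were 0.233 and 0.120 percentage points. Per 100 points of on-target editing this excess was 0.293 for pair 58, 0.288 for pair 57, 0.207 for pair 31 and 0.175 for pair 32. Over the empty vector of its run, pair 32, the lead, therefore had the lowest excess per unit of editing of the 4. It had the second highest on-target value. The order of the excess per unit of editing was not examined over the mean of both empty vectors and may differ there. The authors chose the lead on these screening samples, by on-target level and a score that penalises frequent off-target changes relative to on-target editing. That score is another measure than this excess. Since the samples are the same, the excess is no independent result.

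Among all 52 screening pairs, the Nd3 pairs ranked from the highest on target were 17 (pair 58), 32 (pair 32), 46 (pair 31) and 47 (pair 57), around a median of 74.5%. Ranked from the lowest off-target percentage they were 1 (pair 31), 5 (pair 32), 14 (pair 57) and 37 (pair 58), in runs whose empty vectors differed. By fold over the empty vector of the run, which 40 pairs have, the order was another one, with rank 6 for pair 57, 13 for pair 31, 21 for pair 58 and 22 for pair 32 from the lowest. Within run MS1, pair 31 was last of 16 on target and first of 16 for low off-target editing, and pair 32 was number 12 and number 5. Within run MS2, of 24 pairs, pair 58 was number 9 on target and number 17 from the lowest off target, and pair 57 was number 19 and number 6.

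Delivered as pair 32, the Nd3 edit was highest on target in the 2-plasmid format and had its lowest mean in Tandem-HHR, with Tandem and 2-plasmid-HHR between. In Tandem-HHR cells the 3 samples had 29.5%, 20.9% and 22.0% on-target editing. In Tandem cells they had 39.9%, 28.5% and 41.5%. In 2-plasmid-HHR cells they had 34.9%, 39.6% and 36.3%, and in 2-plasmid cells 63.4%, 63.5% and 63.1%. The 2-plasmid samples lay above all others and almost on top of each other, and the Tandem samples were the most scattered, overlapping with both other formats at 7 d. The means were 24.2% ± 4.7, 36.6% ± 7.1, 36.9% ± 2.4 and 63.3% ± 0.20 for Tandem-HHR, Tandem, 2-plasmid-HHR and 2-plasmid (SD, n = 3 each). The study's legends call the 2-plasmid samples technical replicates in one place and biological replicates in another, so their small SD and every test that uses them may rest on technical spread.

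**Figure D2:**
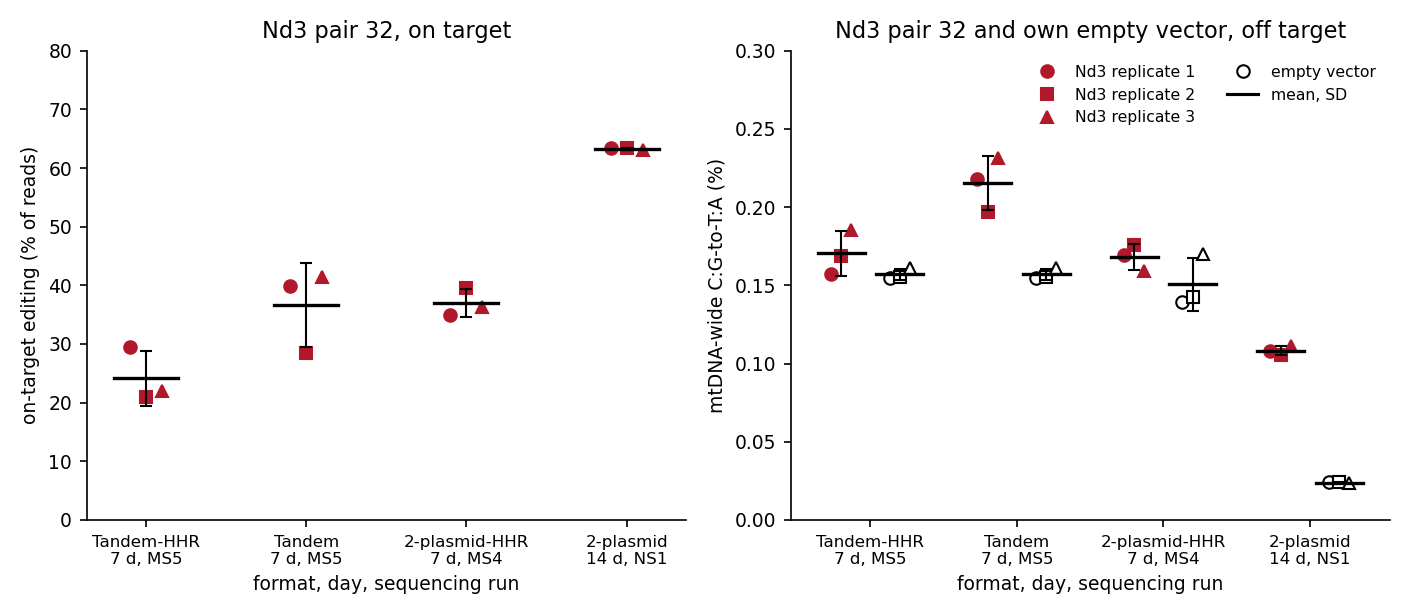
Nd3 pair 32 in the 4 transient formats, with on-target editing (left, percent of reads) and the average frequency of C:G-to-T:A changes (right, percent, with the empty vector of the same experiment as open symbols, the same 3 samples for Tandem-HHR and Tandem). Points are samples, horizontal lines means and bars SD, n = 3. The 2-plasmid samples are highest on target, at 63.1% to 63.5%, and lowest in off-target percentage, over an empty vector that is also far lower, at 0.0238% on average.

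Compared with the 2-plasmid format, mean on-target editing was 38.2% of its level in Tandem-HHR, 57.9% in Tandem and 58.4% in 2-plasmid-HHR. The differences were -39.1, -26.7 and -26.4 percentage points, with no overlap between samples, but an exact permutation test of 3 against 3 cannot go below p = 0.1, and each gave 0.1 (two-sided, adjusted over 6 pairs of formats 0.15). Tandem-HHR also lay below 2-plasmid-HHR without overlap (-12.8 points, exact p = 0.1, adjusted 0.15). Tandem and 2-plasmid-HHR differed by -0.321 points, within the spread of either (exact p = 1), and the sign of this difference turned under some of the other settings. Tandem-HHR against Tandem, the only pair of formats that shared a run and a day, differed by -12.4 points (exact p = 0.2, adjusted 0.24), with 1 Tandem-HHR sample (29.5%) above 1 Tandem sample (28.5%). In both of these formats the sample numbered 2 was the lowest on target in all 4 genes, and without it in either the difference was -14.9 points with no overlap. The part of this replicate in the result was not tested further.

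The 4 formats form a layout of ribozyme by plasmid arrangement. Averaged over both arrangements, on-target editing was 30.6% with the ribozyme and 50.0% without it, a difference of -19.4 points (exact permutation within arrangement, 400 splits, two-sided p = 0.01, adjusted 0.01). Averaged over ribozyme and no ribozyme, it was 30.4% with both monomers on 1 plasmid and 50.1% on separate plasmids, a difference of -19.7 points (exact permutation, p = 0.005, the smallest that 400 splits allow, adjusted 0.01). On leaving out the samples of any 1 number, the ribozyme difference was -21.3 to -17.6 points and that of the arrangement -22.4 to -16.2 points, and neither call held. The exact p was then 0.0556, the smallest possible, except for the ribozyme without replicate 3 (0.111). The ribozyme difference was -12.4 points in the Tandem arrangement and -26.4 in the 2-plasmid arrangement, and whether these differ was not tested. The 14 d and run NS1 of the 2-plasmid samples enter both averages, so format, day and run cannot be told apart in them. For pair 32 on separate plasmids without ribozyme, the only other measurement is the screening sample at 7 d with 68.4%, against a mean of 63.3% at 14 d.

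Off target, Nd3 samples had 0.157%, 0.169% and 0.185% in Tandem-HHR, 0.218%, 0.197% and 0.231% in Tandem, 0.169%, 0.176% and 0.159% in 2-plasmid-HHR, and 0.108%, 0.105% and 0.111% in 2-plasmid cells. The empty vectors had 0.155%, 0.155% and 0.161% for Tandem, 0.140%, 0.142% and 0.170% for 2-plasmid-HHR, and 0.0240%, 0.0240% and 0.0235% for 2-plasmid. All 3 Tandem and all 3 2-plasmid samples lay above every empty-vector sample of their experiment. Of the Tandem-HHR samples 2 did, and of the 2-plasmid-HHR samples 1.

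Expressed as fold over the mean of the own empty vector, Nd3 stood at 1.09 ± 0.091 in Tandem-HHR, 1.37 ± 0.11 in Tandem, 1.12 ± 0.056 in 2-plasmid-HHR and 4.54 ± 0.13 in 2-plasmid cells (SD, n = 3 each). Expressed as excess in percentage points, the values were 0.0135 ± 0.014, 0.0584 ± 0.017, 0.0173 ± 0.0084 and 0.0844 ± 0.0030. The exact permutation test of Nd3 against empty vector gave p = 0.2, 0.1, 0.3 and 0.1 in the same order of formats, where 0.1 is the smallest that it allows (adjusted over 4 formats 0.267, 0.2, 0.3 and 0.2). The samples of both ribozyme formats overlapped with their controls, and those of Tandem and 2-plasmid did not.

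The order of the formats depended on the scale. By the off-target percentage itself, 2-plasmid was the lowest, at 0.108% ± 0.0030, and Tandem the highest, at 0.215% ± 0.017, with Tandem-HHR (0.170% ± 0.014) and 2-plasmid-HHR (0.168% ± 0.0084) between. By fold, 2-plasmid was the highest. The empty vector of the 2-plasmid experiment was at 0.0238% ± 0.00028, against 0.157% ± 0.0033 for Tandem and 0.151% ± 0.017 for 2-plasmid-HHR. Set against the mean of all 9 transient empty vectors, 0.110%, the 2-plasmid samples would stand at 0.980-fold. The differences in fold from 2-plasmid were -3.46 for Tandem-HHR, -3.17 for Tandem and -3.43 for 2-plasmid-HHR, each with no overlap (exact p = 0.1, adjusted 0.12), and all 3 had the opposite sign over the pooled empty vectors. Tandem stood above 2-plasmid-HHR by 0.257 in fold, and Tandem-HHR minus Tandem was -0.287, both with no overlap and exact p = 0.1. Tandem-HHR and 2-plasmid-HHR differed by -0.0293 (exact p = 0.8). The empty vectors of the 2-plasmid experiment also had a coverage of 31439 to 40402, against 230 to 379 for Tandem and 6440 to 18319 for 2-plasmid-HHR. Among these 3 sets, run, day, format and depth cannot be told apart. Empty Tandem entries of run NS1 exist among the deposited values, but they match no sample record and were not compared here. The screening empty vectors, both at 7 d, stood at 0.0616% in run MS1 and 0.121% in run MS2, 1 sample each.

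Over the own empty vector, the off-target excess relative to the 2-plasmid format was 15.9% in Tandem-HHR, 69.2% in Tandem and 20.5% in 2-plasmid-HHR, where on-target editing was 38.2%, 57.9% and 58.4% of its 2-plasmid level. Per 100 points of on-target editing, the excess was 0.0557 points in Tandem-HHR, 0.160 in Tandem, 0.0469 in 2-plasmid-HHR and 0.133 in 2-plasmid. These are ratios of means and were not tested, and they rest on few samples and on the choice of control. On leaving out 1 sample, the excess ranged from 0.00594 (without Nd3 replicate 3) to 0.0201 points in Tandem-HHR and from 0.0118 to 0.0271 (without empty-vector replicate 3) in 2-plasmid-HHR, and from 0.0505 to 0.0675 in Tandem and 0.0829 to 0.086 in 2-plasmid. Over the pooled empty vectors the order changed and 2-plasmid became the lowest, with 0.0599 points in Tandem-HHR, 0.105 in Tandem, 0.0575 in 2-plasmid-HHR and -0.0022 in 2-plasmid.

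Whether the target base counts in the off-target average is not stated in the sources used here. Were the average taken over all 5989 C:G pairs of the mtDNA with the target among them, the Nd3 edit alone would add 0.00404 percentage points in Tandem-HHR, 0.00611 in Tandem, 0.00617 in 2-plasmid-HHR and 0.0106 in 2-plasmid. That would be 30.0%, 10.5%, 35.6% and 12.5% of the measured excess. For the stable lines it would be 0.00957 points in stable Tandem-HHR and 0.0162 in stable Tandem, or 53.6% and 55.5% of their excess.

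Kept under continuous expression, Nd3 was edited almost completely by the Tandem editor, and to a little over the middle of the scale by its ribozyme version. The stable Tandem-HHR line had 53.4%, 63.1% and 55.4% on-target editing at days 28, 35 and 42. The stable Tandem line had 95.5%, 98.8% and 97.2% on the same days. The lines were thus separate at every day, by -42.1, -35.6 and -41.9 points (Tandem-HHR minus Tandem), and both had their highest value of these 3 days at day 35. Over the days the means were 57.3% ± 5.2 in stable Tandem-HHR and 97.2% ± 1.7 in stable Tandem (SD over 3 days of 1 line), so 42.7% and 2.85% of reads kept the reference base. Throughout, the 3 samples of a stable construct, 1 per day by their labels, are read as 1 line. A legend of the study gives 3 biological replicates for these constructs instead. Days of 1 line are not independent samples, so no test was made. Since a sample is a mean over many cells, a share of fully edited cells and partial editing in every cell cannot be told apart.

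**Figure D3:**
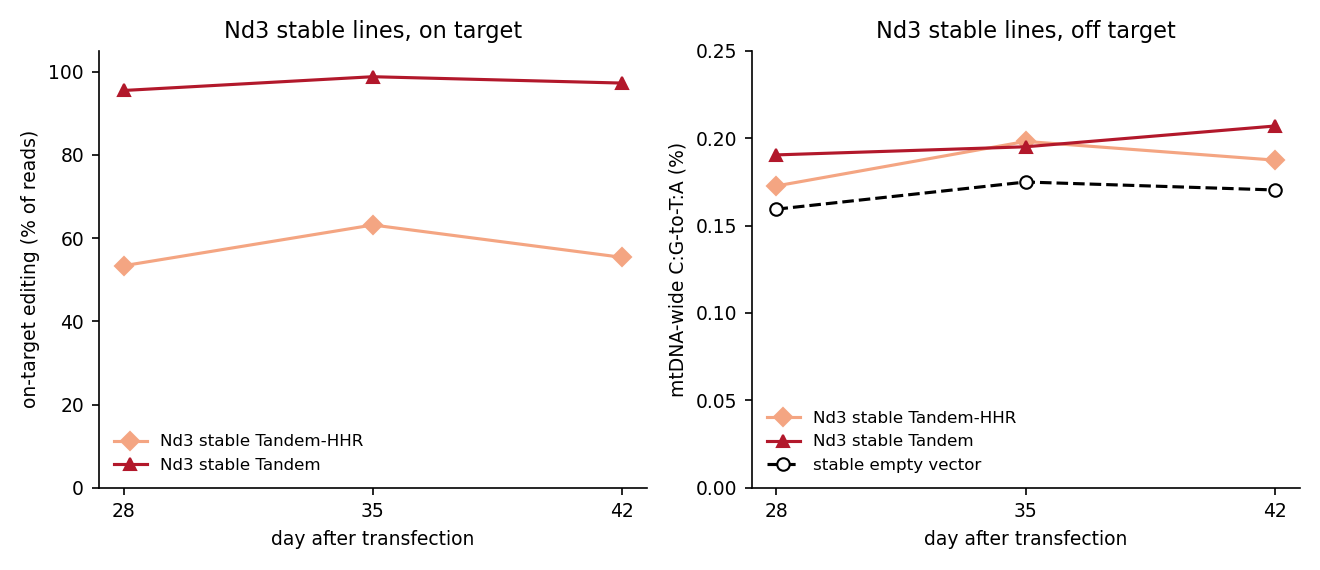
The stable Nd3 lines by day after transfection, with on-target editing (left, percent of reads) and the average frequency of C:G-to-T:A changes (right, percent) of stable Tandem-HHR, stable Tandem and the stable empty vector, 1 sample per line and day. On target, Tandem-HHR stays between 53.4% and 63.1% and Tandem between 95.5% and 98.8%, and off target both lie above the empty vector of the same day.

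Against the transient 7 d samples, the mean of the stable Tandem-HHR line was 2.37-fold as high (57.3% and 24.2%), and that of the stable Tandem line 2.65-fold (97.2% and 36.6%). Day, promoter, cells and selection all differ between stable and transient samples and cannot be told apart.

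Off target, the stable Tandem-HHR line had 0.173%, 0.198% and 0.187% at days 28, 35 and 42, and the stable Tandem line 0.190%, 0.195% and 0.207%. The stable empty vector had 0.159%, 0.175% and 0.170% on these days. Both lines lay above the control at each of the 3 days, by 0.0133, 0.0232 and 0.0171 points for stable Tandem-HHR and by 0.0310, 0.0201 and 0.0366 points for stable Tandem. The lowest stable Tandem-HHR value, at day 28, was below the control value of day 35, whereas all stable Tandem values were above all 3 control values. The mean excess was 0.0179 ± 0.0050 points, or 1.11-fold ± 0.025, in stable Tandem-HHR, and 0.0293 ± 0.0084 points, or 1.17-fold ± 0.053, in stable Tandem (SD over 3 days). Per 100 points of on-target editing this was 0.0312 and 0.0301 points, against 0.0557 and 0.160 in the transient samples of the same constructs. The coverage was 132 in the stable Tandem sample of day 28 and 103 in the empty vector of day 42, the lowest among the stable samples used here.

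Ordered by on-target level, the formats of pair 32 ran from stable Tandem (97.2%) through 2-plasmid (63.3%), stable Tandem-HHR (57.3%), 2-plasmid-HHR (36.9%) and Tandem (36.6%) to Tandem-HHR (24.2%). The neighbours 2-plasmid and stable Tandem-HHR touched, since the stable line at day 35 was within the range of the 2-plasmid samples, and 2-plasmid-HHR and Tandem overlapped. The remaining neighbours were apart except for the single overlapping sample of Tandem-HHR and Tandem.

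Set against the 3 other genes in the same transient formats, Nd3 was edited less than CoII and Atp6, and its mean lay within 1.07 points of that of Cytb. Each gene was edited by 1 pair here, so gene and editor pair cannot be told apart. In the screen, the Nd3 pairs alone ran from 37.5% to 79.6% on target. Averaged over the 4 formats, on-target editing was 40.3% for Nd3 and 50.2% for Atp6, a difference of -9.93 points (exact permutation within formats, 160000 splits, two-sided, p = 0.000313, adjusted over 6 comparisons 0.000625). For CoII the mean was 46.2% and the difference -5.94 points (exact permutation, p = 0.00451, adjusted 0.00677). Nd3 had the lower mean in 4 of 4 formats against either gene. The CoII call was lost when the samples numbered 3 were left out (-6.21 points, p = 0.0556) and when 2-plasmid-HHR was left out (-5.25 points, p = 0.051). For Cytb, at 41.3%, the difference of -1.07 points did not pass the test (exact permutation, p = 0.516), with Nd3 lower in 3 of 4 formats and no overlap only in 2-plasmid cells, where the means were 63.3% and 64.5%.

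In off-target excess, again with 1 pair per gene, Nd3 averaged 0.0434 points over the 4 formats, against 0.109 for Atp6 and 0.0985 for CoII. The differences of -0.0655 points (exact permutation, p = 2.5e-05, adjusted 0.00015) and -0.0551 points (exact permutation, p = 0.000113, adjusted 0.000338) had the same sign in 4 of 4 formats. Against Cytb, at 0.0501 points, the difference was -0.0067 (exact permutation, p = 0.314, adjusted 0.377), lower for Nd3 in both 2-plasmid formats and higher in both Tandem formats. It reached -0.016 points (p = 0.022) without the Tandem format and turned to 0.00238 points (p = 0.732) without 2-plasmid-HHR. In 2-plasmid-HHR cells Nd3 stood below all 3 genes, with an off-target percentage of 0.168% against 0.202% for Cytb, 0.252% for CoII and 0.248% for Atp6, in each case without overlap.

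**Figure D4:**
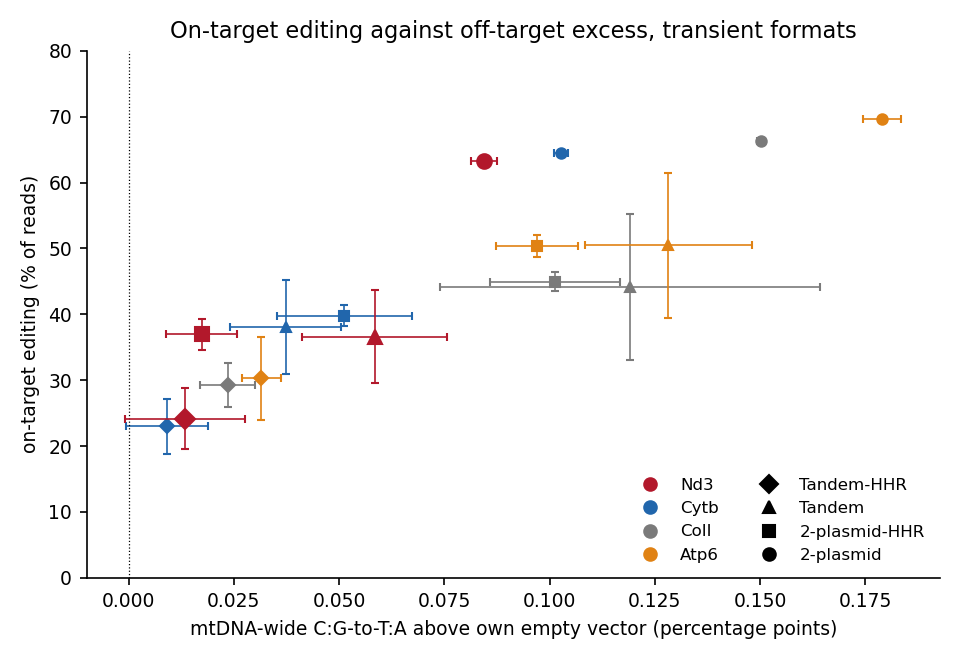
Mean on-target editing (percent of reads) against mean off-target excess over the own empty vector (percentage points) in the 4 transient formats, for Nd3 and the 3 other genes, with SD bars, n = 3. Nd3 in 2-plasmid-HHR pairs 36.9% on-target editing with an excess of 0.0173 points, and in 2-plasmid 63.3% with 0.0844 points, the lowest mean excess of the 4 genes in each of these formats.

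By the mean absolute difference of on-target means over the 4 transient formats, Cytb was the gene most like Nd3 (1.65 points), followed by CoII (5.94) and Atp6 (9.93). Over the 6 stable values the nearest was CoII (12.2 points), with Atp6 at 15.3 and Cytb at 15.5. Among the 13 genes edited by lead pairs in the 14 d experiment, the nearest to Nd3 were Cytb (64.5% ± 0.21) and Atp8 of the ATP synthase (65.3% ± 0.33), and neither overlapped with Nd3 (63.1% to 63.5%), a separation that may be set against technical spread alone, as above. There Nd3 was number 7 of 13 from the highest on target, number 5 from the lowest off-target percentage and number 4 from the lowest excess per 100 points of editing.

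In the stable lines at days 28, 35 and 42, the difference between Tandem-HHR and Tandem was wider for Nd3 than for the other genes. It was -39.9 points ± 3.7 for Nd3, against -8.81 ± 5.3 for Cytb, -15.4 ± 3.2 for CoII and -11.6 ± 2.6 for Atp6 (mean ± SD over 3 days of 1 line each). In the transient samples the order was different: -12.4 points for Nd3, against -15.1, -14.9 and -20.2 for Cytb, CoII and Atp6. The Nd3 stable Tandem-HHR values, 53.4% to 63.1%, lay below every value of the other stable Tandem-HHR lines, the lowest of which was 74.5% (CoII, day 28). The stable Tandem line of Nd3, at 95.5% to 98.8%, overlapped with those of Atp6 (96.6% to 99.8%) and Cytb (90.3% to 95.7%) and lay above that of CoII (90.6% to 93.5%). Relative to the transient samples, stable Tandem-HHR was 2.37-fold as high for Nd3, against 3.70-fold as high in Cytb, 2.61-fold in CoII and 2.85-fold in Atp6. With 1 line per construct, the construct and the line cannot be told apart, and no test was made.

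**Figure D5:**
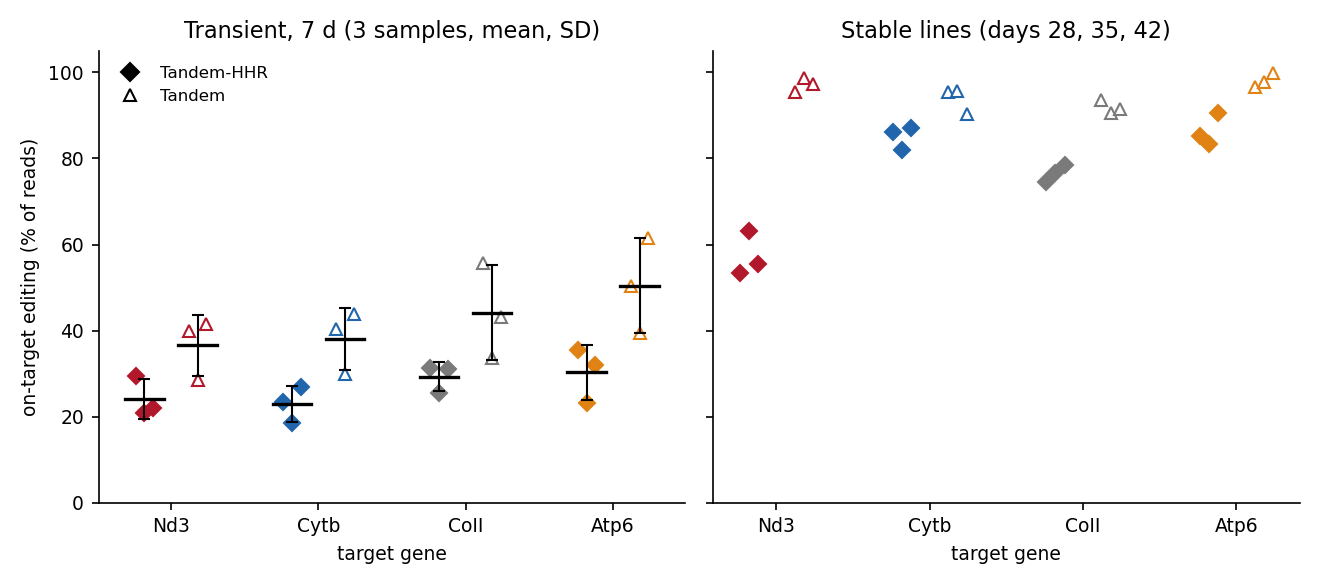
On-target editing (percent of reads) of Tandem-HHR (filled) and Tandem (open) for Nd3, Cytb, CoII and Atp6, in transient 7 d samples (left, 3 samples with mean and SD) and in stable lines (right, 1 line each at days 28, 35 and 42). The stable Nd3 lines are the farthest apart, at 53.4% to 63.1% with the ribozyme and 95.5% to 98.8% without it.

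Off target, the stable Tandem line of Nd3 had a mean excess of 0.0293 points, close to those of Cytb (0.0306) and CoII (0.0419) and far below that of Atp6 (0.262). In stable Tandem-HHR the Nd3 excess was 0.0179 ± 0.0050 points, against 0.0607 ± 0.0034 for Cytb, 0.0176 ± 0.017 for CoII and 0.0341 ± 0.019 for Atp6 (SD over days). Nd3 and CoII thus had the lowest mean excesses with the ribozyme, at on-target means of 57.3% and 76.5%. The day values of both overlapped with those of Atp6, which ran from 0.0143 to 0.0524 points. The stable lines share 1 empty-vector line, so these excesses are not independent of each other.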

How the data were processed

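Libraries were made by the authors with Nextera XT from overlapping long-range PCR products that cover the mtDNA. Their reads were trimmed (Trim Galore, Cutadapt), mapped to the GRCm38 chromosome M (Bowtie 2) and tabulated by base (samtools mpileup with a mapping quality of at least 30, VarScan). Tool versions are not given in the sources used here. The deposited percent values give, for each sample, the reads edited at the target base and the mean frequency of C:G-to-T:A changes across mtDNA. The positions that enter that average are not stated. The deposited coverage is the mean depth of a sample, without normalization. Empty vectors have no on-target value. Runs are named as in the deposited tables.

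Percentages were used as deposited, with no filter or transformation. Samples were grouped by their labels. The tables hold 12 entries that match no sample record, 2 of them for Nd3, and these enter no comparison. Among the others are empty Tandem entries of run NS1, the run of the 2-plasmid samples. Tables of mouse tissue and of nuclear off-targets were not used here. Means, SDs (n - 1), folds over the mean empty vector, excesses and exact permutation tests (two-sided, threshold 0.05, Benjamini-Hochberg within each family named) were computed with python 3.11.15, numpy 2.4.6 and scipy 1.17.1, and figures were drawn with matplotlib 3.10.9. The tests were checked on simulated data with known differences. Sequences and codons were read from the GRCm38 reference with biopython 1.88 and the RefSeq annotation. The TALE composition of pairs follows the study's pair scheme. Nothing in the labels says that replicates came from separate cultures, and the study's legends call them technical in one experiment and biological in another, so p-values measure only the spread between these samples.

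The named genes follow a rule: Nd3, the 3 genes measured in the same formats, and the 2 nearest to Nd3 in the 14 d experiment. Members, comparisons and alternatives were chosen with earlier results of these data known. Alternatives covered the empty vector used, median, logit scale, coverage weights, removal of the target's contribution, left-out replicates, formats and days, and the replicate number as a block. Alternatives added after the data were seen are named as such.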

Additional observations from a re-analysis of the deposited data

Results flagged for a closer look

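The Nd3 table holds a further day, 49, for both stable lines. These entries match no sample record and have no replicate, so they enter no comparison above. At this day the Nd3 Tandem-HHR entry had 52% on-target editing and the Nd3 Tandem entry 99.1%. The off-target percentages were 0.176% for Tandem-HHR and 0.200% for Tandem, against 0.180% for the empty-vector entry of the same day. Relative to this control, the Tandem-HHR entry differed by -0.00432 percentage points and the Tandem entry by 0.020 points. The coverage was 1050 for Tandem-HHR, 3598 for Tandem and 126 for the empty vector. For comparison, the entries of the other genes at this day were 86.2% (Tandem-HHR) and 95.3% (Tandem) on target for Cytb, 79.6% and 90.8% for CoII, and 64.4% and 99.8% for Atp6. The Nd3 Tandem-HHR entry was the lowest of the 4 with the ribozyme. The difference between Tandem-HHR and Tandem at this day was -47.1 points for Nd3, against -35.3 for Atp6, -11.1 for CoII and -9.08 for Cytb, so that the Atp6 entries came close to the difference of Nd3 at day 35 (-35.6).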

How the results depend on the processing

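Of 314 alternative values for 39 results, 273 were counted as unchanged. For a tested result this meant the same sign and the same call, whatever the size of the change. For a result without a test it meant a value within the SD. The call of a comparison of 3 against 3 samples could change only over the pooled empty vectors, since its smallest p is otherwise 0.1 or more. Over the pooled empty vectors, the 2-plasmid excess of Nd3 was -0.0022 points (p = 0.96 by exact permutation) and its fold 0.980, the folds of 2-plasmid-HHR, Tandem and Tandem-HHR were 1.52, 1.95 and 1.54, and the Tandem excess was 0.105 points (exact p = 0.00909). The differences in fold then became 0.562 for Tandem-HHR, 0.969 for Tandem and 0.540 for 2-plasmid-HHR against 2-plasmid. For Tandem-HHR against 2-plasmid-HHR the difference became 0.0221. The pooled empty vectors include the 3 of run NS1, at a mean of 0.0238%, so differences between runs enter all of these values. Over its own empty vector the Tandem excess was 0.0584 points (exact permutation p = 0.1). By medians, the 2-plasmid-HHR fold was 1.19 and Tandem minus 2-plasmid-HHR on target 3.61 points. Without replicate 2 in both formats, an alternative chosen after seeing the data, it was 5.08. On leaving out 1 sample it ranged from -2.75 to 3.76 points (above 0 without Tandem replicate 2, at 3.76, and without 2-plasmid-HHR replicate 2, at 0.997), the 2-plasmid-HHR fold from 1.08 to 1.19, and Tandem-HHR minus 2-plasmid-HHR in fold from -0.0772 to 0.013 (above 0 without Tandem-HHR replicate 1). The ribozyme difference ranged from -21.3 to -17.6 points and that of the plasmid arrangement from -22.4 to -16.2, with exact p of 0.0556 to 0.111, where 0.0556 is the smallest possible. Nd3 minus CoII on target ranged from -6.43 to -5.19 points on leaving out a replicate (-6.21, exact p = 0.0556, without replicate 3) and was -5.25 (p = 0.051) without 2-plasmid-HHR. Nd3 minus Cytb off target was -0.208 as a difference in fold (exact permutation p = 0.0354), -0.016 points (p = 0.022) without Tandem and 0.00238 (p = 0.732) without 2-plasmid-HHR.

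Against the transient Tandem empty vectors, the stable Tandem-HHR excess was 0.0291 points (1.19-fold) and that of stable Tandem 0.0405 (1.26-fold). On the logit scale, stable Tandem-HHR minus stable Tandem was -3.37. Over the mean of both screening empty vectors, the folds were 1.56 (pair 31), 1.98 (pair 32), 2.51 (pair 57) and 3.88 (pair 58), and as differences they were 0.0809, 0.120, 0.108 and 0.233 points. The cause of these changes was not tested beyond what the settings themselves alter.

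With the replicate number as a block, the exact sign-flip test of 3 pairs cannot go below p = 0.25. Without the block, 3 against 3 samples cannot go below 0.1, so the calls of these comparisons could not change. Tandem-HHR minus Tandem on target stayed at -12.4 points (-10.4, -7.52 and -19.4 for numbers 1, 2 and 3, exact sign-flip test, p = 0.25). In the comparisons of Nd3 with the other genes no call changed, and Nd3 minus Atp6 on target stayed at -9.93 points (exact sign-flip test, p = 0.000488). For the ribozyme and plasmid arrangement differences, where the block was added after the data were seen, the exact sign-flip p was 0.0313 each, the smallest possible for 6 pairs. The labels do not say that a number marks a shared culture. Deviations of same-numbered samples, scaled within each format, gave r = 0.406, 0.637 and 0.886 on target for Nd3 with Cytb, CoII and Atp6. Off target, r was 0.415, 0.209 and 0.285 with these genes and -0.00695 with the own empty vector (12 pairs each). These r values were not tested, and with 3 samples per format the 12 pairs are not independent. The same 3 Tandem controls stand for both Tandem formats. Depth limits the Tandem and stable samples most, at a coverage of 132 to 4241 against 57049 or more in 2-plasmid.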
